A study of Mus musculus with 6 samples.

Results

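Id1, Id2, Id3, Id4, Smad6, Smad7, Tgfb1, Tgfb3, Inhba and Bmp4 are ligands, feedback inhibitors and target genes of the TGF-beta and BMP pathways, and their RNA was compared between tumor cells that took up much or little acetylated low-density lipoprotein (acLDL). The genes were picked by symbol, with earlier results of these data known. Of the 10 genes, 9 had a row in the authors' table of 15973 protein-coding genes, and the same 9 were among the 12572 genes that passed the filter on low counts. Bmp4 had 0 counts in all 6 libraries and is not in that table.

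The cells were 4T1-T VM cells, a VM-proficient sub-clone of the mouse mammary carcinoma line 4T1, where VM stands for vasculogenic mimicry, the formation of vessel-like channels by tumor cells. Before the sort, all cells shared growth in RPMI with 10% FBS, overnight serum starvation in Opti-Mem with 0.3% BSA, 4 h with Alexa-488 labelled acLDL at 10 ug/mL and 1 h in complete growth medium. Cells in the top 25% of fluorescence are called acLDL-high and those in the bottom 25% acLDL-low. The comparison asks which genes differ with the uptake of acLDL, a property of endothelial cells and also of some macrophages. Polyadenylated RNA of both populations was sequenced as stranded libraries in replicates 1 to 3, and the experiment was run on 3 separate occasions. All cells come from 1 sub-clone grown in culture, no unlabelled cells entered the comparison, and cells between the 2 gates are not analysed here. In such bulk RNA, fewer cells that express a gene and less RNA per cell cannot be told apart.

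Library totals lay between 70263372 and 94216786 counts, so that 3 counts corresponded to at most 0.0429 CPM (counts scaled to a common library size). As a limit for a count of 0, this takes in counting error alone and treats every count as a separate fragment. Libraries with the same replicate number deviated from their population means together, with correlations between 0.795 and 0.846, and the number was kept as a block in the test. Of the 12572 genes, 431 were higher in acLDL-high cells (3.43%) and 166 were lower (1.32%), together 4.75%, at an adjusted p under 0.05 in edgeR's quasi-likelihood test. The labelled cell type was checked on 8 tested epithelial and carcinoma markers, of which Krt18, Krt8 and Cdh1 had the highest CPM, at 1125, 1102 and 811 CPM in acLDL-low cells.

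TGF-beta and activin ligands signal through receptor kinases to SMAD2 and SMAD3, and BMP ligands signal to SMAD1, SMAD5 and SMAD9. Both kinds of SMAD enter the nucleus with SMAD4. The inhibitory SMADs, Smad6 and Smad7, are themselves induced by these pathways and feed back on them. Id proteins are helix-loop-helix factors without a DNA-binding region that hold E proteins away from DNA, and the Id genes are well known direct targets of BMP signaling.

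SMAD complexes bind short DNA elements, and the stretches upstream of Id genes that hold one are shown because Id genes are the best known direct targets among the 10. RefSeq (GRCm38.p6, the assembly behind mm10) gave a promoter for 7 of the 10 genes, with no entry for Id1, Smad7 or Tgfb3. The 250 bases before the start were searched on both strands for GGCGCC, a GC-rich element bound by SMAD1 and SMAD5, and for CAGAC, the core of the SMAD-binding element. GGCGCC was found in 9.59% of all 32851 promoters searched this way and CAGAC in 42.2%. Id2 and Id4 each held 1 GGCGCC and Id3 held 2 CAGAC, and none of these overlapped a match of the other element. Neither element was in the windows of Inhba, Smad6, Tgfb1 and Bmp4. In the sequences printed here the capitals mark the element. The Id2 stretch is chr12:25096254-25096342 on the minus strand, in an intron of the GENCODE gene model, the Id4 stretch is chr13:48260928-48261016 on the plus strand, upstream of the gene model, and the Id3 stretch is chr4:136143643-136143672 on the plus strand, inside an exon of the gene model, which starts further upstream than the RefSeq start.
Id2: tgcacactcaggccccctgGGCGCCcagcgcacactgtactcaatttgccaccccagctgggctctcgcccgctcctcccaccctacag
Id4: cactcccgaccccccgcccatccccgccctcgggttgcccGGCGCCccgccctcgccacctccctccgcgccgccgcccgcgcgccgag
Id3: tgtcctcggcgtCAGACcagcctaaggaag

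Whether either element bears on the levels of these genes was not tested. A match is only a description of the letters in these windows.

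Of the 9 genes tested, Id1, Id2, Id3 and Inhba were higher in acLDL-high cells, none was lower (0 also at an unadjusted p under 0.05 and in DESeq2), and 5 did not pass the test. The 4 higher genes are 44.4% of those tested, beside 3.43% of all genes tested. Since earlier results of these data were known when the genes were chosen, this share is a description only. The median log2 fold change of the 9 genes was 0.26, beside 0.0017 over all tested genes. Of the 9 genes, 6 were higher in all 3 pairs, as were 20.9% of all tested genes. Only Id3 had 3 acLDL-high libraries above all 3 acLDL-low libraries, a pattern found in 1.23% of all tested genes. Without the replicate block, none of the 9 passed the edgeR test, and 2 of them had an unadjusted p under 0.05, while DESeq2 with the block called 4.

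**Figure D1:**
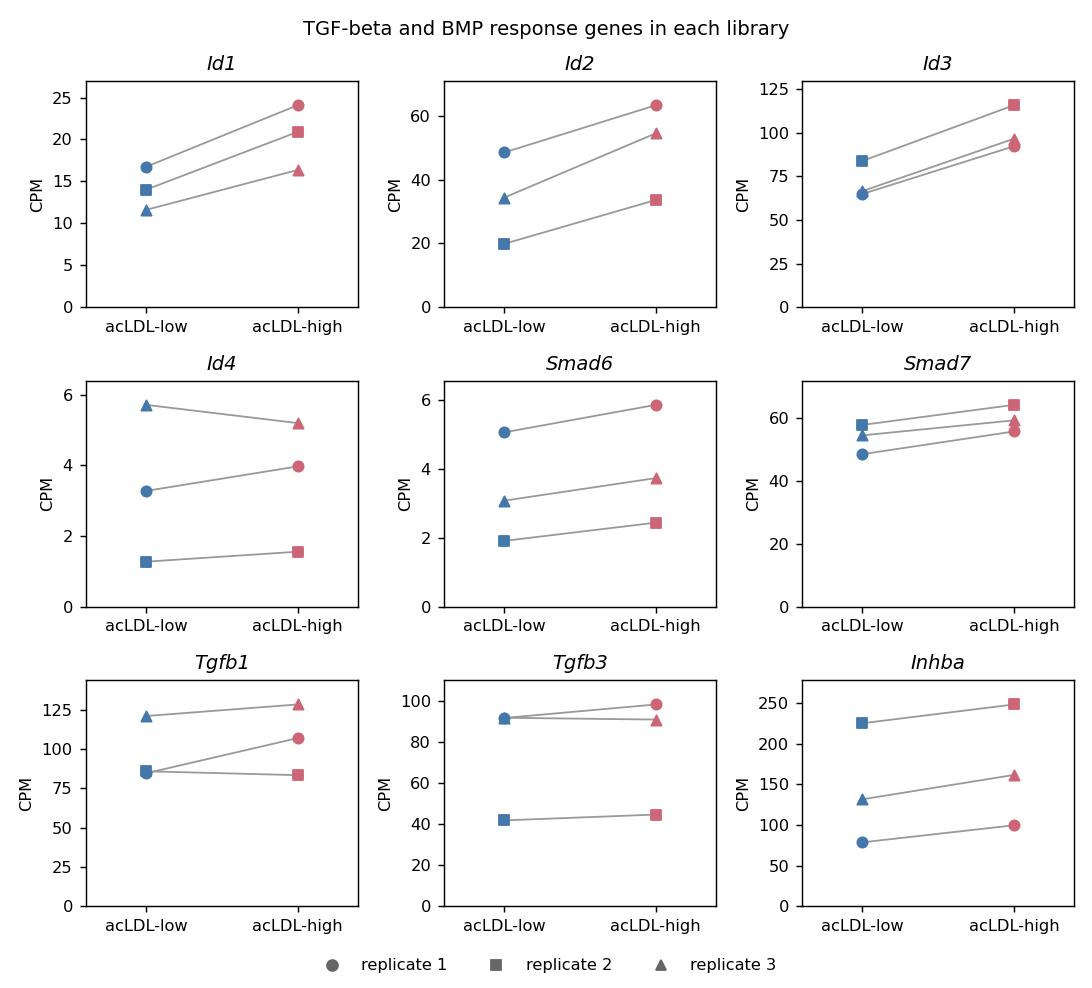
Level in CPM (vertical axis, from 0) of each of the 9 tested genes in the 3 acLDL-low (blue) and 3 acLDL-high (red) libraries, with lines that join libraries of the same replicate number and symbols that mark the number. For Id1, Id2, Id3, Smad6, Smad7 and Inhba the acLDL-high point of all 3 lines is the higher one, and only for Id3 do all red points lie above all blue ones.

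Among the ligands, Inhba (ENSMUSG00000041324) rose. It encodes the beta A subunit, of which a dimer makes activin A, and lies on chr13:16011851-16031621 (plus strand). In replicates 1, 2 and 3, Inhba was at 78.7, 225 and 132 CPM in the acLDL-low population and at 99.7, 248 and 162 CPM in acLDL-high cells. The acLDL-high library was the higher one of each pair, but the ranges of the groups overlapped, and replicate 2 was highest in both. The ratio of acLDL-high to acLDL-low was 1.27, 1.10 and 1.23 in pairs 1, 2 and 3. Its fitted log2 fold change was 0.26 (SE 0.047, 95% interval 0.16 to 0.36), with an edgeR adjusted p of 0.00809. Without replicate 3 the log2 fold change was 0.24 and the edgeR adjusted p 0.104, so that the call was lost with a fold change about as large.

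Tgfb1 (ENSMUSG00000002603), the widely expressed TGF-beta ligand, lies on chr7:25687002-25705077 (plus strand). Its level in replicates 1, 2 and 3 was 84.6, 85.8 and 121 CPM in the acLDL-low population and 107, 83.4 and 128 CPM in acLDL-high cells. The acLDL-high library was higher in replicates 1 and 3 and lower in replicate 2, and the groups overlapped. The log2 fold change was 0.13 (SE 0.060, 95% interval -0.0024 to 0.26, edgeR adjusted p = 0.269). Pair 1 held the largest difference of Tgfb1. Without replicate 1 the log2 fold change was 0.023 (edgeR adjusted p = 0.891), and without replicate 2 it was 0.21 (edgeR adjusted p = 0.00601), so both its size and its call varied with the pair left out.

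Tgfb3 (ENSMUSG00000021253), a TGF-beta ligand known for its part in palate closure, lies on chr12:86056745-86079041 (minus strand). It was at 91.7, 41.8 and 91.8 CPM in acLDL-low replicates 1, 2 and 3 and at 98.3, 44.7 and 90.9 CPM in the acLDL-high ones. Replicate 2 was the lowest in both groups. The log2 fold change of 0.059 (SE 0.044, 95% interval -0.036 to 0.15) did not pass the test, with an edgeR adjusted p of 0.506, and ranged from 0.039 without replicate 1 to 0.099 without replicate 3. Tgfb3 exons overlap 2 genes on the opposite strand, and the strand setting of the counting is not given in the sources used here.

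Bmp4 (ENSMUSG00000021835), a BMP ligand on chr14:46383520-46390669 (minus strand), had no count in any library. At the depth of these libraries, 3 counts correspond to between 0.0323 and 0.0429 CPM. Low counts were mostly even, such as 2, 4 and 4 in acLDL-low and 4, 4 and 8 in acLDL-high libraries for Bambi (named after its values were seen). Both reads of a pair may thus have been counted, which was not tested. The level that a count of 0 allows would then be higher.

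The other ligands gave no call. Of 13 further genes of the TGF-beta and activin arm, 5 were tested, and Inha, Gdf1, Gdf3, Mstn and Nodal had 0 counts throughout. None of the 5 passed in edgeR or in DESeq2, and 1, Gdf9 (named after its value was seen, log2 fold change -1.03, SE 0.37, edgeR adjusted p = 0.153), was lower at an unadjusted p under 0.05. Counts of Gdf9 were low, at 39, 32 and 16 in acLDL-low replicates 1, 2 and 3 and 16, 18 and 10 in acLDL-high ones. Its means were 0.380 CPM in acLDL-low and 0.186 CPM in acLDL-high cells. Gdf11 had the highest CPM of the 13, with means of 22.9 and 23.8 CPM in acLDL-low and acLDL-high cells, followed by Tgfb2 (6.52 and 7.53 CPM) and Amh (0.826 and 0.634 CPM). Of 14 further BMP-arm ligands, Bmp7 alone passed the filter. Bmp7 was at 38.4 CPM in acLDL-low and 37.7 CPM in acLDL-high cells, with a log2 fold change of -0.012 (95% interval -0.13 to 0.10, edgeR adjusted p = 0.934). Bmp8b and Bmp6 were under 1 CPM in every library, and Bmp2, Bmp10, Gdf2, Gdf6, Gdf7 and Gdf10 had 0 counts. Bmp7 was the BMP ligand with the highest CPM in these cells.

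Among 14 tested receptors and co-receptors, 2 rose and 1 fell (21.4%, beside 4.75% of all genes tested). The median log2 fold change was 0.059. Tgfbr2, the type II receptor that binds TGF-beta, was at 182, 195 and 161 CPM in acLDL-low replicates 1, 2 and 3 and at 215, 232 and 171 CPM in the acLDL-high ones. Its log2 fold change was 0.19 (edgeR adjusted p = 0.0313), and the call was lost with a fold change of similar or larger size without replicate 1 (0.17, edgeR adjusted p = 0.0766) or replicate 3 (0.24, edgeR adjusted p = 0.0552). Tgfbr3, the co-receptor betaglycan, rose by a log2 fold change of 0.30 (edgeR adjusted p = 0.0150) from a mean of 18.6 to 22.9 CPM, and not without replicate 3 (0.24, edgeR adjusted p = 0.192). Its exons overlap another gene on the same strand. Acvr2b, a type II activin receptor, fell in all 3 pairs, from 7.74, 5.92 and 7.76 CPM to 6.20, 4.63 and 6.01 CPM. The log2 fold change of Acvr2b was -0.35 (edgeR adjusted p = 0.0375). The value hardly moved where the call was lost, at -0.36 without replicate 1 (edgeR adjusted p = 0.0775), -0.34 without replicate 3 (edgeR adjusted p = 0.254) and -0.35 in DESeq2 (adjusted p = 0.0878). Bmpr2 and Bmpr1a, BMP receptors with the highest CPM after Tgfbr2, had log2 fold changes of 0.099 and 0.085 and did not pass the test.

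Of 15 tested genes for latency, release and extracellular antagonism, 2 rose (13.3%, beside 4.75% called of all genes tested). Ltbp2, a matrix protein of the latent TGF-beta binding family, rose by a log2 fold change of 0.30 (edgeR adjusted p = 0.0105), and its 3 acLDL-high libraries, at 170.0, 136.8 and 136.7 CPM, lay above the acLDL-low ones, at 131.5, 100.4 and 127.9 CPM. Itgb6, the beta chain of an integrin that releases TGF-beta from its latent form, was low, at means of 3.41 and 4.81 CPM. Its log2 fold change was 0.48 (edgeR adjusted p = 0.0294), against 0.40 without replicate 2 (edgeR adjusted p = 0.105) and 0.46 without replicate 3 (edgeR adjusted p = 0.201). The 3 genes of highest CPM on the list, Ltbp3, Ltbp1 and Itgav, had log2 fold changes of 0.041, 0.0068 and 0.15 and did not pass the test.

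Within the cell, 20 further SMADs, corepressors and ubiquitin ligases were tested, and Skil alone passed. Skil encodes SnoN, a SMAD corepressor that TGF-beta also induces. It was at 145, 136 and 136 CPM in acLDL-low replicates 1, 2 and 3 and at 177, 162 and 169 CPM in the acLDL-high ones, so the groups did not overlap. The log2 fold change was 0.28 (SE 0.041, edgeR adjusted p = 0.00180). Smad3, Pmepa1 and Tgif1, the highest in CPM on the list, had log2 fold changes of 0.12, 0.098 and 0.11 and edgeR adjusted p of 0.172, 0.261 and 0.272. The share called in this list, 5.0%, was near the 4.75% of all genes.

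Smad7 (ENSMUSG00000025880), which blocks TGF-beta and BMP receptors, was at 48.4, 57.7 and 54.4 CPM in acLDL-low replicates 1, 2 and 3 and at 55.6, 64.0 and 59.1 CPM in acLDL-high ones. Each acLDL-high library lay above its partner, and the groups overlapped. The log2 fold change of 0.16 (SE 0.044, 95% interval 0.062 to 0.25) did not pass after adjustment over all genes, with an edgeR adjusted p of 0.0616. Smad7 passed in 1 alternative, without the filter on low counts, at an edgeR adjusted p of 0.0350.

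Smad6 (ENSMUSG00000036867), which acts mainly on BMP signaling, lies on chr9:63953076-64022059 (minus strand) and was low. In replicates 1, 2 and 3 it was at 5.05, 1.91 and 3.07 CPM in the acLDL-low population and at 5.84, 2.43 and 3.72 CPM in acLDL-high cells. All 3 pairs differed in one direction, while replicates differed by more than the populations did. Its log2 fold change was 0.27 (SE 0.11, 95% interval 0.031 to 0.51, edgeR adjusted p = 0.199). The intervals of Smad6 and Smad7 are not adjusted over genes, and both lie above 0.

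Of the 4 Id genes, 3 rose, and they had the largest log2 fold changes of the 9 genes tested. Id1 (ENSMUSG00000042745), an inhibitor of differentiation known in endothelial and tumor cells, lies on chr2:152736251-152737410 (plus strand). In replicates 1, 2 and 3, Id1 was at 16.7, 14.0 and 11.6 CPM in the acLDL-low population and at 24.1, 20.9 and 16.4 CPM in acLDL-high cells. The highest acLDL-low library of Id1 lay just above the lowest acLDL-high one, and within each pair the acLDL-high library was higher. Mean levels were 14.1 ± 2.57 and 20.4 ± 3.88 CPM (SD, n = 3). The log2 differences within pairs 1, 2 and 3 were 0.52, 0.58 and 0.50, and the fit gave 0.53 (SE 0.060, 95% interval 0.40 to 0.66), or 1.45-fold, with an edgeR adjusted p of 3.59e-04.

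Id2 (ENSMUSG00000020644), whose upstream GGCGCC is printed earlier, lies on chr12:25093799-25097140 (minus strand). It was at 48.6, 19.9 and 34.4 CPM in acLDL-low replicates 1, 2 and 3 and at 63.4, 33.7 and 54.6 CPM in the acLDL-high ones. The groups overlapped widely, with replicate 2 the lowest in both, and each pair rose. The log2 differences within pairs 1, 2 and 3 were 0.38, 0.76 and 0.67, the widest spread of the 3 Id genes that rose. The fitted value was 0.60 (SE 0.064, 95% interval 0.46 to 0.73), or 1.51-fold, with an edgeR adjusted p of 2.22e-04.

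Id3 (ENSMUSG00000007872), the Id gene with the highest level per kilobase of exon, lies on chr4:136143497-136145755 (plus strand). Its levels in replicates 1, 2 and 3 were 64.9, 83.9 and 66.6 CPM in the acLDL-low population and 92.3, 116 and 96.6 CPM in acLDL-high cells. Every acLDL-high library of Id3 was above every acLDL-low library. Mean levels were 71.8 ± 10.5 and 102 ± 12.5 CPM (SD, n = 3). The pairs differed by 0.51, 0.47 and 0.54 on the log2 scale, and the fit gave 0.50 (SE 0.042, 95% interval 0.41 to 0.59), or 1.42-fold. Its edgeR adjusted p of 3.72e-05 was the smallest of the 9 genes, and by p Id3 ranked 7 of 12572.

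Id4 (ENSMUSG00000021379) lies on chr13:48261228-48266026 (plus strand) and was the Id gene with the lowest level per kilobase. It was at 3.28, 1.28 and 5.71 CPM in acLDL-low replicates 1, 2 and 3 and at 3.97, 1.56 and 5.20 CPM in the acLDL-high ones. In pairs 1 and 2 the acLDL-high library was higher, and in pair 3 it was lower. The log2 fold change was 0.11 (SE 0.13, 95% interval -0.17 to 0.39, edgeR adjusted p = 0.702). It was 0.017 without replicate 1, 0.052 without replicate 2 and 0.28 without replicate 3, and Id4 passed the test in none of these. The difference between Id4 and the other Id genes was not tested. Id4 exons overlap 2 genes on the opposite strand.

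**Figure D2:**
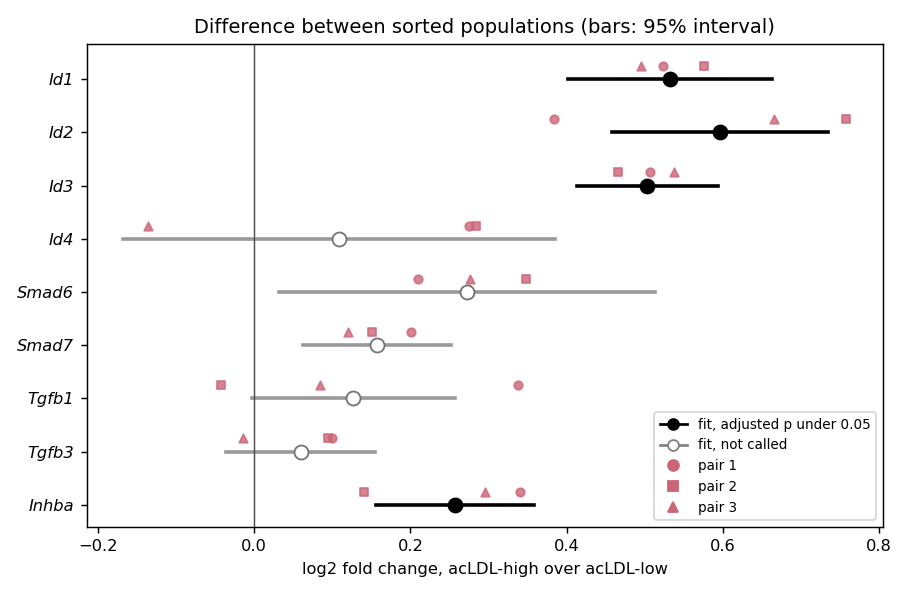
Fitted log2 fold change of acLDL-high over acLDL-low cells (horizontal axis) for each tested gene, with its 95% interval as a bar and the log2 difference within each pair as red symbols. Filled circles mark the 4 genes with an adjusted p under 0.05. The intervals of Id1, Id2 and Id3 overlap one another, and those of Id4, Tgfb1 and Tgfb3 include 0.

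Other target genes of BMP signaling gave no call. Of 11 further genes of that list, 5 were tested and none passed the edgeR test, with 0 at an unadjusted p under 0.05 and 0 in DESeq2. Runx2, the osteoblast factor, had the highest CPM, at 66.1 and 68.6 CPM in acLDL-low and acLDL-high cells, with a log2 fold change of 0.058 (edgeR adjusted p = 0.550). Dlx3 and Nog, the next in level, had means below 1 CPM in both populations, and Msx2 and Dlx5 had 0 counts. On the whole BMP target list, Id1, Id2 and Id3 were the genes that passed.

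Of 17 further TGF-beta target genes tested, 10 rose and none fell, or 58.8% called, beside 4.75% of all genes tested. At an unadjusted p under 0.05, 1 gene was lower (Snai1, named after its value was seen), and none was lower in DESeq2. The median log2 fold change was 0.24. Thbs1 (thrombospondin-1, a matrix protein that can activate latent TGF-beta) had the largest difference, from 779, 465 and 456 CPM in acLDL-low replicates 1, 2 and 3 to 1075, 874 and 724 CPM in acLDL-high ones. Its log2 fold change was 0.68 (SE 0.066, edgeR adjusted p = 1.22e-04). Ccn2, a matricellular growth factor, was at 76.0, 149 and 22.1 CPM in the acLDL-low population and at 107, 229 and 38.1 CPM in acLDL-high cells, a log2 fold change of 0.62 (SE 0.053, edgeR adjusted p = 4.24e-05). Each pair of Thbs1 and Ccn2 rose, although replicates of Ccn2 differed by more than the populations.

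Pdgfb, a growth factor chain, rose by a log2 fold change of 0.47 (edgeR adjusted p = 4.56e-04). Skil, Ltbp2 and Itgb6 are also on this list. Bhlhe40, Junb and Fn1 lost their calls when some pairs were left out, as did Itgb6. Bhlhe40, a circadian transcription factor, had a log2 fold change of 0.29 (edgeR adjusted p = 0.0279). Without replicate 2 the value for Bhlhe40 was smaller, 0.15 (edgeR adjusted p = 0.0570), and without replicate 3 it was larger, 0.36 (edgeR adjusted p = 0.101). Junb, an AP-1 factor, had 0.25 (edgeR adjusted p = 0.0170), against 0.18 without replicate 1 (edgeR adjusted p = 0.0777) and 0.26 without replicate 3 (edgeR adjusted p = 0.120). For Fn1, fibronectin and the gene of highest CPM on the list, the log2 fold change was 0.22 (edgeR adjusted p = 0.0422), and leaving out any 1 pair gave values between 0.16 and 0.28 and an edgeR adjusted p between 0.0587 and 0.119, so the call was lost each time.

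Without replicate 3, 6 of these target genes were still called, among them Thbs1, Ccn2, Pdgfb, Skil and Ltbp2. Exons of Ccn2, Ltbp2, Bhlhe40, Junb, Fn1 and Thbs1 overlap a gene on the opposite strand. Cdkn2b, a cell-cycle inhibitor induced by TGF-beta, had 0 counts in all libraries.

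In all, 115 further pathway genes were listed, 114 had a row, 75 were tested, and 12 of these rose and 1 fell (17.3%, beside 4.75% of all genes). Among 4 tested partners of Id proteins, none passed in edgeR or DESeq2, and Tcf3 was lower at an unadjusted p under 0.05. Tcf3 (E2A) had a log2 fold change of -0.11 (95% interval -0.21 to -0.0088, edgeR adjusted p = 0.215), Tcf4 of 0.050 and Tcf12 of 0.054, at mean levels between 136 and 174 CPM in acLDL-low cells. Myod1, a muscle lineage factor that dimerises with E proteins, had 0 counts.

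**Figure D3:**
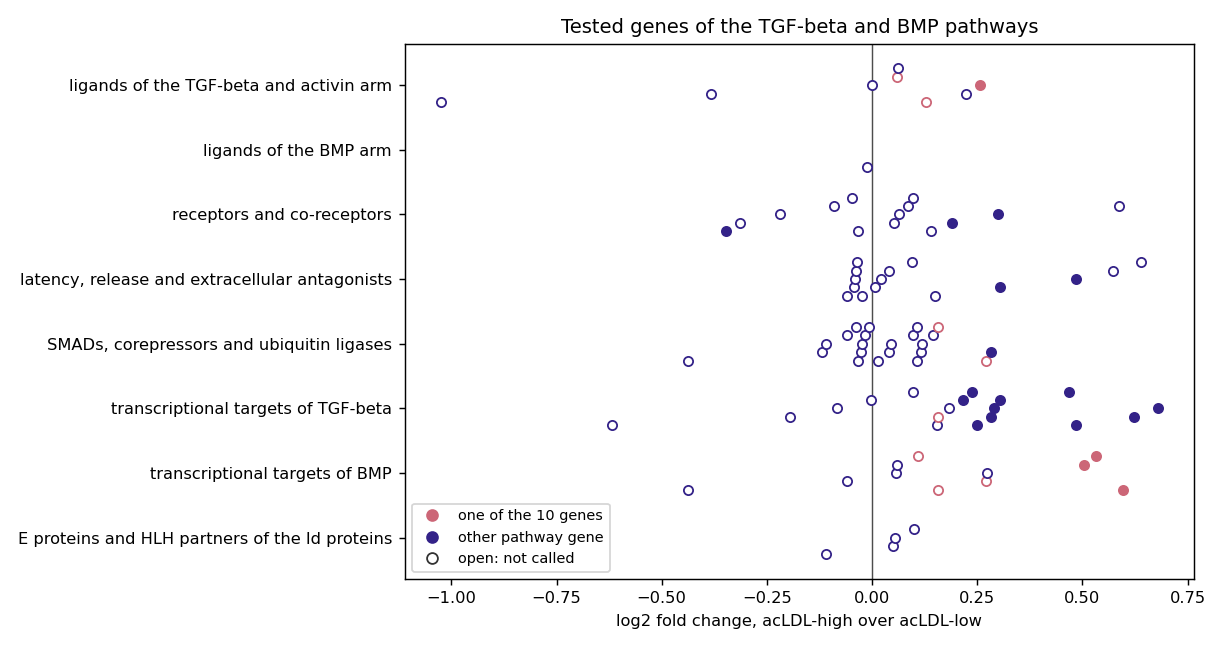
Log2 fold change of acLDL-high over acLDL-low cells (horizontal axis) for each tested gene of 8 pathway lists (rows, with points spread vertically only to separate them), where red marks the genes named at the start, blue the other pathway genes, and filled points an adjusted p under 0.05. The row of TGF-beta targets holds 10 filled points, and on the BMP target row they are Id1, Id2 and Id3.

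Other gene groups moved with the populations. Of 20 tested G2/M genes, 14 were higher and none lower (0 also unadjusted and in DESeq2). The share called was 70%, beside 4.75% of all genes tested, and the median log2 fold change was 0.28. Their summed level lay between 2511 and 3171 CPM in acLDL-low libraries. In acLDL-high libraries it lay between 3205 and 4052 CPM. Top2a, the DNA topoisomerase of dividing cells and the highest of them in CPM, had a log2 fold change of 0.45 (edgeR adjusted p = 1.96e-04), Cenpf of 0.34 (edgeR adjusted p = 0.0136) and Tpx2 of 0.23 (edgeR adjusted p = 0.0626). Of 16 immediate early genes, which serum induces, Fos, Junb, Egr3, Ier3 and Dusp1 were higher and Myc was lower. At an unadjusted p under 0.05, 9 of the 16 were higher and 2 lower. DESeq2 called 5 higher and 2 lower, so this list moved in both directions. The share called in edgeR was 37.5%, beside 4.75% of all genes tested, and the median log2 fold change was 0.19. All but Junb and Ier3 were named after their values were seen, and Junb is also among the TGF-beta target genes. Junb, Fosl1 and Ier3 had the highest CPM, with log2 fold changes of 0.25, 0.19 and 0.31. The part of the cell cycle and of the return to serum in the differences of the Id genes and Inhba was not tested.

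Markers of other cells were counted in the same libraries. Of 11 macrophage and leukocyte markers, Adgre1, C1qa, C1qb and Tyrobp were at 0 counts, and their summed level was between 19.2 and 21.5 CPM in acLDL-low and between 20.1 and 24.4 CPM in acLDL-high libraries. Most of it came from Cd14, which was higher (log2 fold change 0.32, edgeR adjusted p = 0.0246), and from Cd68 and Mrc1. Of 9 endothelial markers, Flt4, Emcn and Cldn5 were at 0, Tie1, Pecam1 and Cdh5 had the highest CPM, and the sum was between 1.56 and 2.64 CPM in acLDL-low and between 1.51 and 2.32 CPM in acLDL-high libraries. Of 9 fibroblast and pericyte markers, Col3a1 and Lum were at 0 and Pdgfra, at 34.9 and 37.1 CPM, made up most of the sum, ahead of Col1a1 and Dcn. Among epithelial markers, Cldn4, named after its value was seen, was higher (log2 fold change 0.53).

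Levels of different genes were set side by side per kilobase of exon. Id3 had the highest mean over the 6 libraries, at 48.4 CPM per kb, followed by Inhba at 24.7, Tgfb3 at 22.6, Tgfb1 at 20.2, Id2 at 17.4, Id1 at 14.9 and Smad7 at 12.5 CPM per kb. Id3 was above Inhba in each of the 6 libraries, although their ranges over libraries overlapped. From Inhba to Smad7, neighbours in this order did not differ beyond their spread over libraries. The lowest Smad7 library, at 10.7 CPM per kb, was above the highest Smad6 library, at 1.82 CPM per kb. Smad6 and Id4, at 1.15 and 0.909 CPM per kb, overlapped, and Bmp4 was at 0.

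**Figure D4:**
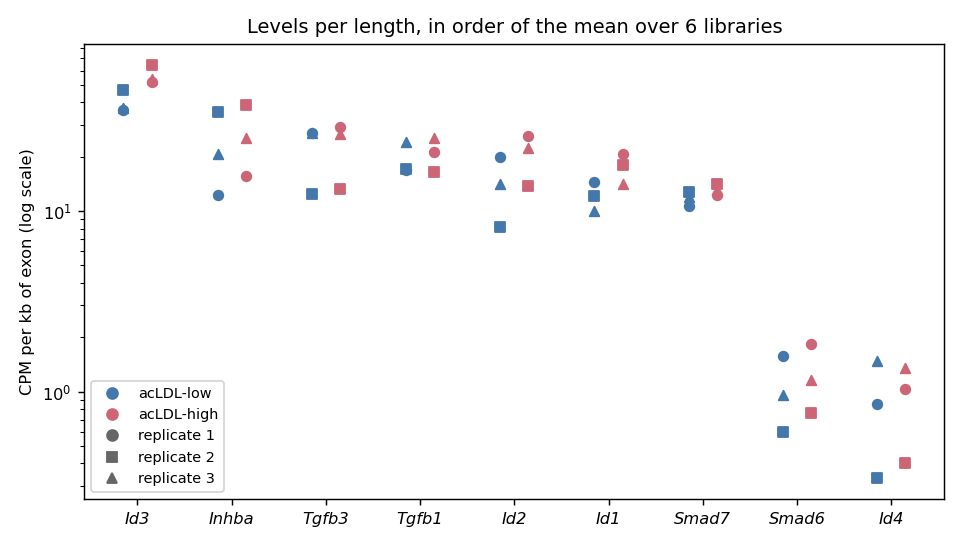
Level per kilobase of exon (vertical log axis, CPM per kb) of the 9 detected genes in each library, ordered by the mean over 6 libraries, with color for the population and symbols for the replicate number. From Id3 to Smad7 the libraries lie between 8.16 and 64.7 CPM per kb, and Smad6 and Id4 lie between 0.331 and 1.82 CPM per kb.

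Replicates of the same population differed more than the populations for most of these genes. The mean level of a replicate number, over its 2 libraries, differed by at least 2-fold between the highest and lowest number for 5 of the 9 genes. The ratio was 3.85 for Id4, 2.65 for Inhba, 2.51 for Smad6, 2.20 for Tgfb3 and 2.09 for Id2, and 1.17 for Smad7, the steadiest. Replicate 2 was the lowest for 5 genes and the highest for Id3, Smad7 and Inhba. For Id3 the ratio was 1.27, below the 1.42-fold difference between populations.

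The genes followed the replicate number in different ways. Over the 6 libraries, log2 levels of Id2 and Smad6 had a Pearson r of 0.92 and those of Id4 and Tgfb3 of 0.94, while Smad6 and Inhba had an r of -0.89. Id2 and Id3, which both rose, had an r of 0.038. These values describe libraries that share replicate numbers and carry no test.

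Among all tested genes, those whose log2 level was most like a given one of the 9 over the 6 libraries were Psme1 (r = 0.987) and Bik (0.979) for Id1, Grtp1 (0.994) and Vkorc1 (0.993) for Id2, Cemip2 (0.984) and Ncoa7 (0.979) for Id3, and Gaa and Gnb5 (both 0.997) for Id4. For Smad6 they were Tmem154 (0.999) and Dlx1 (0.998), and for Smad7 they were Tuba1c (0.996) and Spty2d1 (0.991). Otud5 (0.997) and Lgals7 (0.992) were nearest to Tgfb1, Il18 and Fam117b (both 0.999) to Tgfb3, and Pphln1 and Rnf165 (both 0.997) to Inhba. Of these 18 genes, Psme1, Cemip2 and Tuba1c were also higher in acLDL-high cells, with edgeR adjusted p of 0.0453, 0.0234 and 0.00254. Of all genes tested, 3.43% were higher. The 18 genes were chosen for their likeness over the same libraries, so these 3 calls are no separate result. These r values are a description over 6 libraries, which share replicate numbers in pairs.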

How the data were processed

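Polyadenylated RNA of 6 sorted samples, 3 acLDL-high and 3 acLDL-low, was measured by paired-end RNA-Seq. The authors aligned reads to mm10 with STAR (version 2.5.2a per the submitters' notes) and deposited raw counts per gene, without normalization, from featureCounts (version 1.4.3-p1). All 6 per-sample columns were used. The annotation release and strand setting are not given in the sources used here. The authors' DESeq2 (version 1.20.0) comparison, whose columns hold mean counts, fold changes and p-values, served only for its list of protein-coding genes.

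Counts were fitted with edgeR (version 4.0.16, R 4.3.3; filterByExpr, TMM, quasi-likelihood test, Benjamini-Hochberg adjustment over 12572 genes, threshold 0.05). The replicate number was a block, because the study's methods include replicate information and same-numbered libraries deviated together (0.795, 0.846 and 0.799, against -0.557 to -0.0882 otherwise). The labels do not say whether a number marks one occasion. P-values of fits with the block measure the spread left between these samples after the replicate number, with information shared over genes. SE is the log2 fold change over the square root of F. CPM use TMM-scaled sizes, and log2 CPM a prior count of 2. Alternatives were no block, DESeq2 size factors, DESeq2 (version 1.42.0), no low-count filter, a minimum of 10 counts per library, the whole count table, and each pair left out.

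The genes and lists were chosen with earlier results of these data known. Text names all 10 genes, pathway genes past the threshold, the 3 of highest CPM (not scaled to length) in each list, markers at 0, and for each tested gene the 2 most alike. Positions and exon lengths are from GENCODE M21 on GRCm38 (53274 of 53379 IDs found). Hjv had no row. Further genes that this rule names are counted in their lists but not reported here.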

Additional observations from a re-analysis of the deposited data

How the results depend on the processing

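The largest dependence was on the replicate block. With no replicate block, 0 genes passed the edgeR test among 12329 (45 at an unadjusted p under 0.05), and with them 0 of the 9 genes (2 unadjusted) and 0 of 74 other pathway genes (2 unadjusted), while DESeq2 with the block called 514 genes, 4 of the 9 and 14 pathway genes. The cause was not tested. Leaving out 1 pair gave between 126 genes called (without replicate 3) and 869 (without replicate 2), between 3 and 5 of the 9, and between 6 (without replicate 3) and 16 other pathway genes. These fits hold fewer samples. With no low-count filter 932 genes were called among 15973, including 5 of the 9. Every alternative kept the direction of all 9 genes and of the 13 other pathway genes called. Id1, Id2 and Id3 passed in 8 of the 8 alternatives that kept the block, Inhba in 7, Smad7 and Tgfb1 in 1 each, and Id4, Smad6 and Tgfb3 in none. Among pathway genes, Ltbp2, Skil, Ccn2, Pdgfb and Thbs1 passed in 8 of 8, and Fn1 in 4. At this depth Bmp4 was not detectable, and other depths or numbers of pairs were not tried beyond leaving out 1 pair.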
